A study of Sus scrofa with 6 samples.

Results

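The circadian clock genes considered here are ARNTL, CLOCK, PER1, PER2, PER3, CRY1, CRY2, NR1D1, NR1D2 and BHLHE40. Probe sets were taken for a gene where the array annotation gave its symbol, or where the symbol was only a placeholder and the title named its protein. This rule found 7 probe sets for 4 of the 10 genes, of 6283 genes that could be named on the array. ARNTL, PER1 and BHLHE40 had 2 probe sets each and CRY1 had 1. No probe set met the rule for CLOCK, PER2, PER3, CRY2, NR1D1 or NR1D2, so these 6 genes were not analysed here.

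The arrays were hybridised with RNA from the longissimus dorsi, the long muscle of the back, of male piglets aged 25 days. There were 3 Shaziling piglets (replicates 4, 5 and 6), an indigenous Chinese breed, and 3 Yorkshire piglets (replicates 1, 2 and 3), a commercial lean breed, with 1 array per animal. The piglets of a breed were full siblings and each breed was kept on a farm of its own, so breed, litter and farm cannot be told apart, and each p-value reflects only how far siblings lie apart. The hour at which muscle was taken, which moves the clock genes of any tissue, was not stated in the labels used here, and its part in the values was not tested.

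In the core clock, ARNTL (also called BMAL1) pairs with CLOCK and binds E-box elements to switch on the PER, CRY, NR1D and BHLHE40 genes. The PER and CRY proteins then return to the nucleus and inhibit the pair, while the NR1D receptors (REV-ERB) shut off transcription of ARNTL itself, so that in mouse muscle ARNTL and the PER and NR1D genes peak at opposite times of day. Skeletal muscle has such a clock in its own fibres, where it is known for timing glucose use, lipid use and the expression of myogenic genes.

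Percent Present calls, a detection call given to each probe set by MAS5, were 56.4 to 60.0 on the Shaziling arrays and 58.3 to 60.6 on the Yorkshire arrays. Of the 10 muscle fibre markers, 9 were tested and 0 passed. At the brightest probe set of each gene all 9 had a positive log2 fold change, with a median of 0.13, against 46.2% positive over all tested probe sets. The other ACTA1 probe set had -0.076, and the other TTN probe sets ran from -0.064 to 0.54. The summed linear signal of the 9 was 247620 to 276460 in Shaziling and 207620 to 255070 in Yorkshire. Of 6 lymphocyte markers, CD3E, CD3D, CD2 and CD79B were Present on no array. CD3G was tested and did not pass (log2 fold change -0.0045). Macrophage markers, 4 of 6 tested, summed to 1410.5 to 1803.5 in Shaziling and 738.2 to 1532.4 in Yorkshire, and the lysozyme gene LYZ among them was higher in Shaziling (log2 fold change 2.05, SE 0.30, adjusted p = 0.0425 in limma). The other macrophage markers tested did not pass, with log2 fold changes of 0.49 for AIF1, 0.20 for CSF1R and -0.15 for CD163. Without Yorkshire replicate 1 or without Shaziling replicate 6 no probe set on the array passed, LYZ included. In a piece of muscle, fewer cells of a type and less RNA per cell cannot be told apart.

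No clock gene passed the test between the breeds, and Shaziling and Yorkshire piglets overlapped at every one of them. Of the 7 clock probe sets, 6 had a Present call on at least 3 arrays and were tested, and 0 of the 6 passed an adjusted p of 0.05 in limma, against 0.215% of all 14413 tested probe sets (31 probe sets). At an unadjusted p under 0.05 the clock count was also 0, against 10.4% of all tested probe sets. The 3 signals of one breed lay clear of the 3 of the other at 0 clock probe sets, against 16.3% of all. In 3 clock probe sets the fold change was positive and in 3 negative, with a median log2 fold change of 0.13, against -0.035 over all tested probe sets. The 95% intervals below give the size of difference that the 6 arrays leave possible at each gene.

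ARNTL is the only member of the activator arm that was measured. Its brighter probe set had log2 signals of 8.79, 9.63 and 9.40 in Shaziling replicates 4, 5 and 6, against 8.89, 9.10 and 8.41 in Yorkshire replicates 1, 2 and 3. Shaziling replicates 5 and 6 stood above every Yorkshire piglet and replicate 4 lay among them, so the breeds overlapped. The mean was 9.27 ± 0.44 in Shaziling and 8.80 ± 0.36 in Yorkshire (SD, n = 3), a log2 fold change of 0.47 (SE 0.29, 95% interval -0.18 to 1.12, adjusted p = 0.613 in limma). On the linear scale that interval runs from 0.884-fold to 2.18-fold.

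The dimmer ARNTL probe set had the same highest animal and the same lowest pair of animals. It had log2 signals of 6.57, 7.71 and 6.69 in Shaziling replicates 4, 5 and 6, against 6.86, 6.80 and 6.06 in Yorkshire replicates 1, 2 and 3. Both ARNTL probe sets were highest in Shaziling replicate 5 and lowest in Yorkshire replicate 3, and the dimmer one spanned 3.15-fold between those animals and the brighter one 2.33-fold. Between breed means it differed by 0.42 on the log2 scale (SE 0.39, 95% interval -0.46 to 1.29, adjusted p = 0.759 in limma). Without Shaziling replicate 5 this estimate was 0.054, and that of the brighter probe set 0.29.

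The array annotation places the brighter ARNTL probe set on chromosome 2 from 42869798 to 42920764 on the minus strand, and the dimmer one on chromosome 2 from 43008958 to 43119785 on the plus strand. The file does not give its assembly in a readable form, so these positions and those below hold only for the file. The intervals do not overlap and lie on opposite strands, and whether both sets read the same transcript was not tested. The annotation flags 5 probes of the brighter set and 8 of the dimmer set as cross-hybridising to a RefSeq transcript. The dimmer set was found through the title of a predicted ARNTL-like gene that matches 11 of its probes. For the brighter set, from which the arm difference below is computed, the file lists no such transcript match, and its annotation grade is E, against A for the dimmer set.

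PER1, the period protein whose transcription also responds acutely to stress hormones and cell signalling, was spread widely among the Shaziling littermates. Its brighter probe set had log2 signals of 10.97, 11.69 and 12.32 in Shaziling replicates 4, 5 and 6, against 12.07, 11.83 and 12.23 in Yorkshire replicates 1, 2 and 3. The Shaziling piglets held both the lowest and the highest value, a 2.55-fold range within 1 litter, and the Yorkshire piglets lay close together between them. The mean was 11.66 ± 0.68 in Shaziling and 12.04 ± 0.20 in Yorkshire (SD, n = 3), a log2 fold change of -0.38 (SE 0.31, 95% interval -1.07 to 0.30, adjusted p = 0.708 in limma).

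The other PER1 probe set had log2 signals of 10.50, 11.15 and 11.54 in Shaziling replicates 4, 5 and 6, against 11.12, 11.15 and 11.57 in Yorkshire replicates 1, 2 and 3. Shaziling replicate 4 was again the lowest of the 6, and Shaziling replicate 6 and Yorkshire replicate 3 were again the highest pair. Its log2 fold change was -0.22 (SE 0.27, 95% interval -0.83 to 0.40, adjusted p = 0.823 in limma). Both PER1 estimates leaned on Shaziling replicate 4: without it they were -0.038 at the brighter and 0.064 at the dimmer probe set. Without Shaziling replicate 6 they were -0.71 and -0.46, and without Yorkshire replicate 3 they were -0.29 and -0.071. The probe sets lie on chromosome 12, from 50588360 to 50590389 and from 50588377 to 50594742 on the minus strand in the file's coordinates, so they read overlapping sequence of 1 gene and are not independent measurements. In each PER1 set the annotation flags 8 probes as cross-hybridising to a clone sequence.

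CRY1, the cryptochrome that with the PER proteins inhibits the ARNTL and CLOCK pair, varied least among the clock genes. Its log2 signals were 8.96, 9.55 and 9.20 in Shaziling replicates 4, 5 and 6, against 9.22, 9.62 and 9.34 in Yorkshire replicates 1, 2 and 3. Between the lowest and the highest of the 6 animals the signal differed 1.58-fold, and the breeds overlapped. The log2 fold change was -0.16 (SE 0.24, 95% interval -0.69 to 0.37, adjusted p = 0.857 in limma). The probe set lies on chromosome 5 from 11578710 to 11579338 in the file's coordinates.

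BHLHE40 (DEC1) is an E-box repressor that competes with the ARNTL and CLOCK pair and that also answers to hypoxia and growth signals. Its brighter probe set had log2 signals of 10.05, 10.31 and 8.88 in Shaziling replicates 4, 5 and 6, against 9.30, 9.47 and 8.66 in Yorkshire replicates 1, 2 and 3. Shaziling replicates 4 and 5 stood above all Yorkshire piglets, whereas Shaziling replicate 6 was below Yorkshire replicates 1 and 2. The mean was 9.74 ± 0.76 in Shaziling and 9.14 ± 0.43 in Yorkshire (SD, n = 3), with a log2 fold change of 0.60 (SE 0.38, 95% interval -0.26 to 1.46, adjusted p = 0.634 in limma). Without Shaziling replicate 6 it was 1.03, without Shaziling replicate 5 it was 0.32, and without Yorkshire replicate 3 it was 0.36.

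The dimmer BHLHE40 probe set was Present on no array and Marginal on that of Shaziling replicate 5, so it was not tested. Its log2 signals were 6.44, 6.77 and 4.97 in Shaziling replicates 4, 5 and 6, against 5.09, 5.37 and 5.54 in Yorkshire replicates 1, 2 and 3. Both BHLHE40 probe sets were highest in Shaziling replicate 5 and next highest in Shaziling replicate 4. They overlap at their ends on chromosome 13 in the file's coordinates, from 51362299 to 51363372 and, for the dimmer set, from 51361645 to 51362345. In the dimmer set the annotation flags 8 probes as cross-hybridising to a clone sequence.

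**Figure D1:**
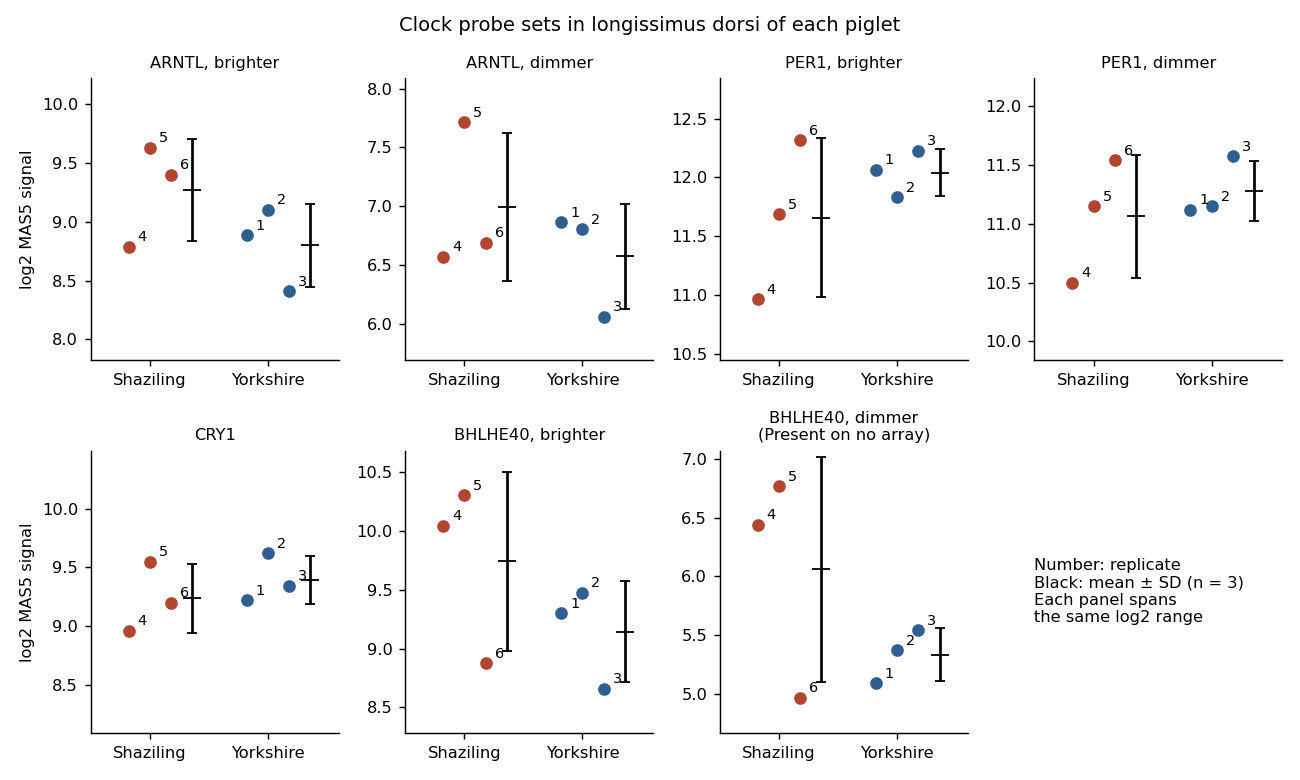
Log2 MAS5 signal of the 7 clock probe sets in each piglet, with Shaziling (replicates 4 to 6) left of Yorkshire (replicates 1 to 3) and the mean ± SD in black; every panel spans the same log2 range. The breeds overlap in every panel, PER1 is lowest in Shaziling replicate 4 at both probe sets, and ARNTL is highest in Shaziling replicate 5 at both.

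At 5 of the 6 tested clock probe sets, littermates differed more than at most probe sets of similar signal. The residual SD within breeds was 0.62 for the brighter BHLHE40 probe set, larger than that of 93.3% of the 1000 tested probe sets nearest to it in mean signal. For PER1 it was 0.50 and 0.41, larger than that of 89.0% and 81.7% of their neighbours. For ARNTL it was 0.40 and 0.55, larger than 71.4% and 72.7%. CRY1 went the other way, with 0.25, larger than 39.1%. These percentiles describe 6 arrays, and the probe sets of 1 gene share their RNA.

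The activator and repressor arms were then set against each other, since ARNTL and the PER genes peak at opposite times of day in mouse muscle. No such timing is given here for CRY1 and BHLHE40, which were also counted as repressors. In each piglet the mean deviation of PER1, CRY1 and BHLHE40 from the 6-array mean was subtracted from that of ARNTL, using the brighter probe set of each gene. This arm difference was -0.037, 0.28 and 0.43 in Shaziling replicates 4, 5 and 6, against -0.14, -0.038 and -0.50 in Yorkshire replicates 1, 2 and 3 (log2). The means were 0.23 ± 0.24 in Shaziling and -0.23 ± 0.24 in Yorkshire (SD, n = 3). All Shaziling values lay above all Yorkshire values, but Shaziling replicate 4 (-0.0367) and Yorkshire replicate 2 (-0.0384) were nearly equal, so the breeds were barely apart. That separation depends on the ARNTL probe set. The dimmer ARNTL set was lower in Shaziling replicate 6 (6.69) than in Yorkshire replicate 1 (6.86). The mean repressor deviations of these animals were -0.071 and -0.0071. With the dimmer set Yorkshire replicate 1 would therefore lie above Shaziling replicate 6, and the breeds would overlap. As the members had been chosen with results of these arrays known, no p is given.

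Within the repressor arm the genes did not move together. Between breed means the arm as a whole differed by 0.019 on the log2 scale, the mean of 0.60 for BHLHE40, -0.38 for PER1 and -0.16 for CRY1, and the breed difference of 0.45 in the arm difference came almost wholly from ARNTL, at 0.47. With PER1 as the sole repressor the arm difference was 0.86, with CRY1 alone 0.63, and with BHLHE40 alone -0.13, so that its sign depends on which repressor is read. These 3 readings were added after the values were seen.

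By animal, the brighter probe sets of ARNTL and PER1 deviated in opposite directions in 4 of the 6 piglets. In Shaziling replicate 5 ARNTL deviated by 0.60 and PER1 by -0.16, in Yorkshire replicate 1 by -0.15 and 0.22, and in Yorkshire replicate 3 by -0.63 and 0.38. In Yorkshire replicate 2 both were near 0, at 0.068 and -0.017. They were not opposed in Shaziling replicate 6, where both were high (0.36 and 0.47), nor in Shaziling replicate 4, where both were low (-0.25 and -0.88). BHLHE40, a target of the activator arm, stood with ARNTL rather than with PER1 in Shaziling replicate 5 (0.86, against 0.60 for ARNTL and -0.16 for PER1), in Yorkshire replicate 1 (-0.14) and in Yorkshire replicate 3 (-0.79). It stood against both in Shaziling replicate 4, at 0.60, and in Shaziling replicate 6, at -0.57. The dimmer ARNTL probe set, with a 6-array mean of 6.78, was below that mean in Shaziling replicate 6 (6.69). In Yorkshire replicate 1 it was above it (6.86). The readings for these 2 animals therefore change with the ARNTL probe set.

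**Figure D2:**
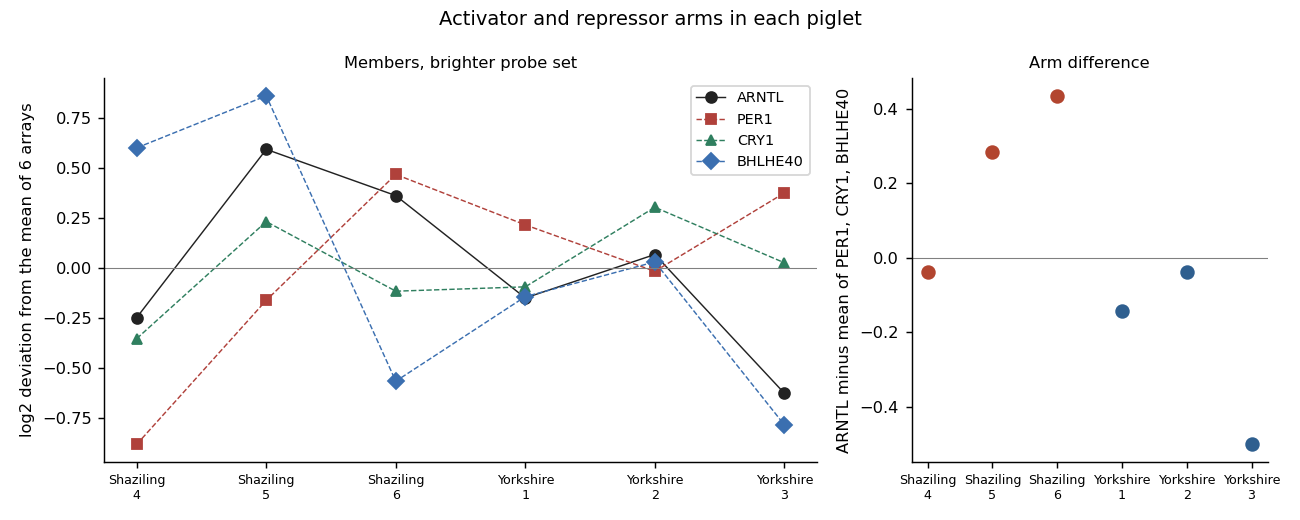
Left, log2 deviation of ARNTL, PER1, CRY1 and BHLHE40 (brighter probe sets) from their 6-array means in each piglet, Shaziling left of Yorkshire. Right, ARNTL minus the mean of the 3 repressors, from -0.037 to 0.43 in Shaziling (red) and from -0.50 to -0.038 in Yorkshire (blue); the lines only join the points of a gene.

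Genes that work with the clock were read from 6 lists of 85 genes in all, of which 39 were tested. None of the 39 passed the threshold in limma, 5 had an unadjusted p under 0.05, against 10.4% of all tested probe sets, and 4 (10.3%) had breeds that did not overlap, against 16.3% of all tested probe sets. By direction 17 were positive and 22 negative, with a median log2 fold change of -0.09, against -0.035 over all tested probe sets.

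Among the other transcription factors of the clock, only NFIL3 and RORA of 12 were tested, and neither passed. NFIL3 (E4BP4) represses D-box genes such as the PER genes. It had log2 signals of 9.11, 8.82 and 8.59 in Shaziling replicates 4, 5 and 6, against 7.97, 7.80 and 8.41 in Yorkshire replicates 1, 2 and 3. All Shaziling piglets lay above all Yorkshire piglets, with a log2 fold change of 0.78 (with SE 0.26 and adjusted p = 0.330 in limma). RORA, the nuclear receptor that activates ARNTL at the elements where the NR1D receptors repress it, ranged far more within each breed. Its log2 signals were 8.20, 10.15 and 9.91 in Shaziling replicates 4, 5 and 6, against 9.22, 10.49 and 8.63 in Yorkshire replicates 1, 2 and 3. Its breed means were alike (log2 fold change -0.02, SE 0.57, adjusted p = 0.992 in limma), and it was low in Shaziling replicate 4 and Yorkshire replicate 3, the animals with the lowest signals at the brighter ARNTL probe set.

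Of the kinases, ubiquitin ligases and partners that set the life of the PER and CRY proteins, 7 of 15 were tested and 0 passed. FBXL21, an F-box protein that in the mouse binds the cryptochromes, had log2 signals of 7.78, 5.99 and 6.83 in Shaziling replicates 4, 5 and 6, against 8.31, 8.27 and 7.58 in Yorkshire replicates 1, 2 and 3. Shaziling replicates 5 and 6 were below every Yorkshire piglet and Shaziling replicate 4 was not, for a log2 fold change of -1.18 (with SE 0.44 and adjusted p = 0.381 in limma). Casein kinase CSNK1E, which phosphorylates PER, had 0.11 (SE 0.21), the deacetylase SIRT1 0.09 (SE 0.25) and the casein kinase 2 subunit CSNK2A1 -0.08 (SE 0.22). Second probe sets of CSNK1E and SIRT1 had -0.13 and 0.27. In the corepressor complex through which the NR1D receptors act, 3 of 6 genes were tested and 0 passed. The log2 fold change was 0.23 (SE 0.20) for the corepressor NCOR1 and -0.18 (SE 0.21) for the deacetylase HDAC3. Other probe sets of NCOR1 had 0.15 and -0.18, so its direction depends on the probe set, and another of HDAC3 had -0.32.

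**Figure D3:**
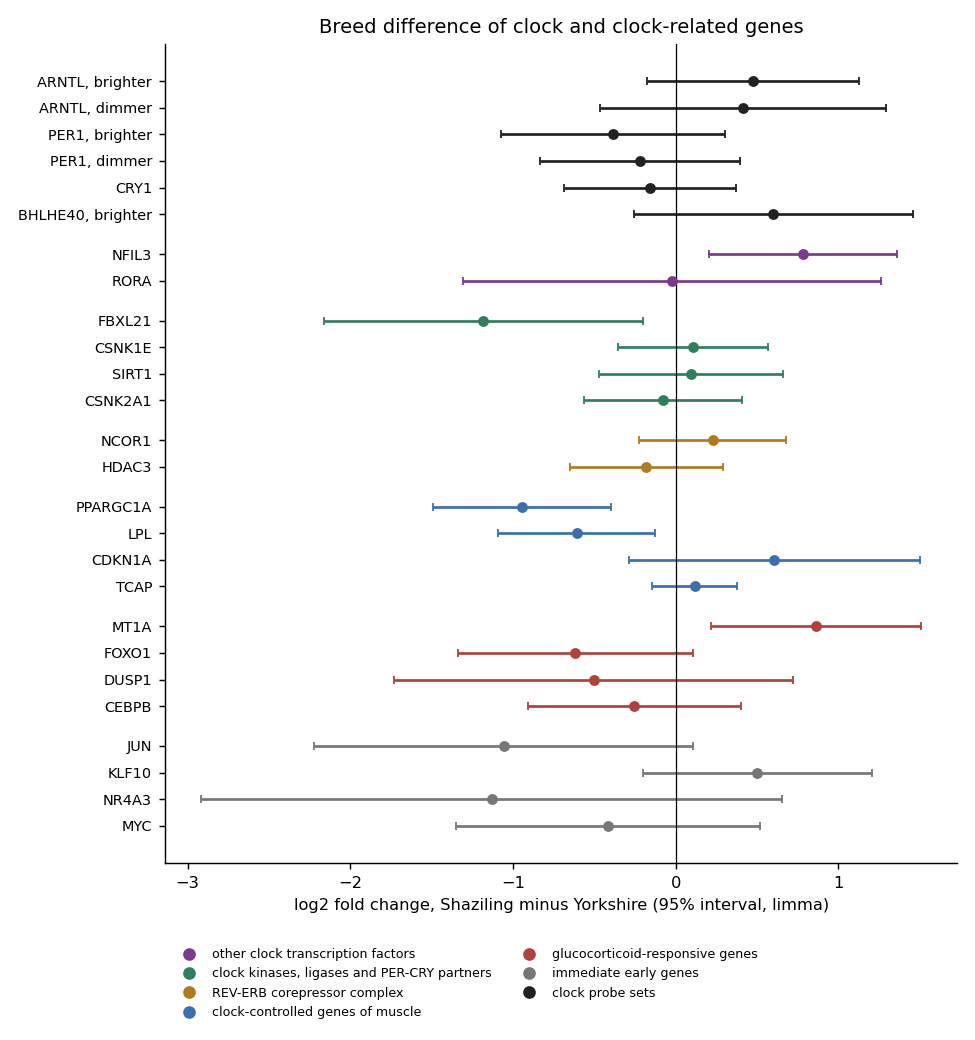
Log2 fold change between Shaziling and Yorkshire with its 95% interval from limma for the 6 tested clock probe sets and for the genes named here from the 6 other lists (at most 4 a list). All clock intervals include 0, and none of the genes drawn passed the adjusted threshold.

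Genes described as clock-controlled in mouse muscle showed no common direction. Of 15 such genes 10 were tested, 6 positive and 4 negative, with a median log2 fold change of 0.06 and 0 past the threshold. PPARGC1A, the coactivator of mitochondrial genes that also coactivates ROR receptors on ARNTL, had log2 signals of 9.80, 9.94 and 9.20 in Shaziling replicates 4, 5 and 6, against 10.71, 10.69 and 10.38 in Yorkshire replicates 1, 2 and 3. Its breeds did not overlap, yet its log2 fold change, -0.94, missed the threshold (SE 0.24, adjusted p = 0.230 in limma). The lipase gene LPL had -0.61 (SE 0.21), the cell cycle inhibitor CDKN1A 0.61 (SE 0.40) and the Z-disc gene TCAP, whose breeds did not overlap, 0.12 (SE 0.12). The glucose transporter SLC2A4 and VEGFA were Present on no array, so their levels are not read here.

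Because PER1 also responds to glucocorticoids and to acute stimuli, lists of such genes were read beside it. Of 23 immediate early genes 9 were tested, 3 positive and 6 negative, with a median log2 fold change of -0.42 and 0 past the threshold. Their mean deviation was -1.29, 0.55 and 0.28 in Shaziling replicates 4, 5 and 6, against 0.34, -0.92 and 1.03 in Yorkshire replicates 1, 2 and 3. Shaziling replicate 4 was thus the lowest animal for this list and for both PER1 probe sets, while Yorkshire replicate 2 was nearly as low for the list and had PER1 signals close to those of its littermates. JUN, a subunit of the AP-1 factor, had 10.18, 12.24 and 12.56 in Shaziling replicates 4, 5 and 6, against 12.99, 12.72 and 12.45 in Yorkshire replicates 1, 2 and 3 (log2 fold change -1.06, SE 0.52, adjusted p = 0.531 in limma). KLF10 had 0.50 (SE 0.31), NR4A3 -1.13 (SE 0.79) and MYC -0.42 (SE 0.42).

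Of 16 glucocorticoid-responsive genes 10 were tested, 4 positive and 6 negative, with a median log2 fold change of -0.12 and 0 past the threshold. Their mean deviation was -0.66, 0.36 and 0.21 in Shaziling replicates 4, 5 and 6, against -0.05, 0.36 and -0.22 in Yorkshire replicates 1, 2 and 3, with Shaziling replicate 4 again the lowest. The metallothionein MT1A had 0.86 (SE 0.29) and did not overlap between breeds, FOXO1 had -0.62 (SE 0.32) and CEBPB -0.25 (SE 0.29). DUSP1, a phosphatase that belongs to both lists, had 10.52, 12.80 and 11.97 in Shaziling replicates 4, 5 and 6, against 12.88, 11.39 and 12.53 in Yorkshire replicates 1, 2 and 3. Whether these lists bear on the low PER1 signal of Shaziling replicate 4 was not tested.

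**Figure D4:**
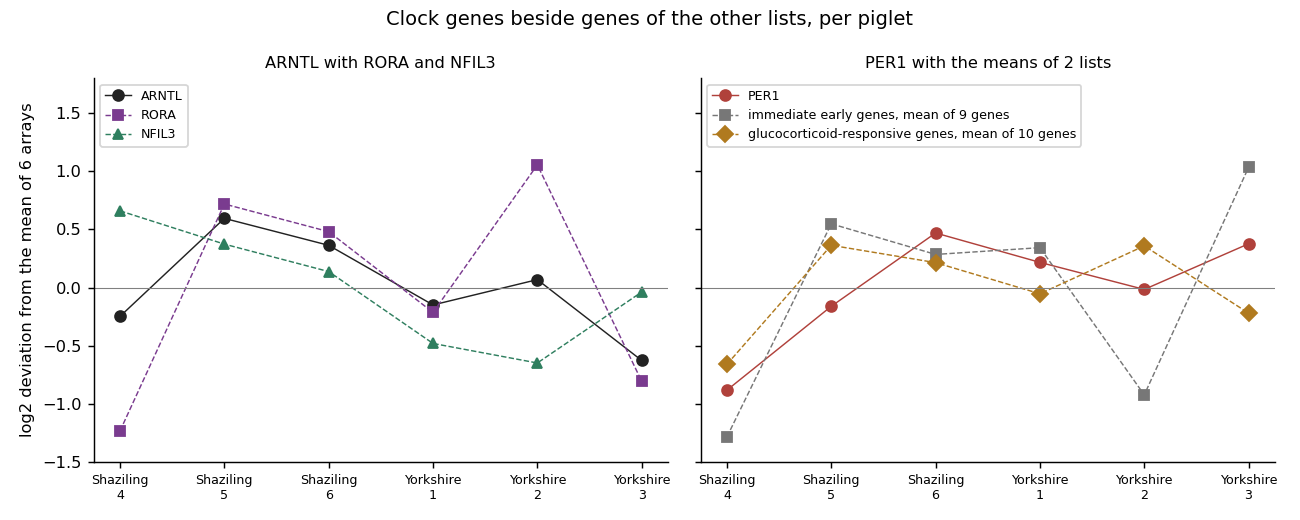
Log2 deviation from the 6-array mean in each piglet, Shaziling left of Yorkshire; left, ARNTL, RORA and NFIL3; right, PER1 (brighter probe set) with the mean over the 9 tested immediate early genes and the 10 tested glucocorticoid-responsive genes. In Shaziling replicate 4 PER1 and both list means are at their lowest, at -0.88, -1.29 and -0.66, and RORA is low with ARNTL in Shaziling replicate 4 and Yorkshire replicate 3.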

How the data were processed

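One array per piglet was read. The signals deposited by the authors are log2 values, and MAS5 is the tool that the submitters' processing notes list (version not given in the sources used here), and the linear 2% trimmed mean is near 500 on every array, so the arrays had been scaled before deposit. The deposited detection calls are Present, Marginal or Absent, per the file headers. Both deposited tables held equal signals, with 0 differences. Of 24123 probe sets, 124 controls were left out, and the 14413 Present on at least 3 of 6 arrays were tested with limma 3.58.1 in R 4.3.3 (eBayes with trend), taking Yorkshire from Shaziling. Benjamini-Hochberg adjustment ran over all of them, with a threshold of 0.05. The number of arrays limits the precision. Symbols were updated through Entrez IDs and a RefSeq table of Sscrofa11.1, used for names only; 3940 placeholders were named that way, and 8857 probe sets had 1 named gene. Lists use the probe set of highest mean signal per gene. Named genes are all clock probe sets, at most 4 genes with the lowest p from each other list, and the 3 genes most like and most unlike the arm difference. One gene that this rule names is not reported here, though list counts include it. The clock genes and lists were chosen with earlier results of these data known. The fit was tested on simulated data. Alternatives covered normalization, the Present filter, an offset of 32, the variance trend, array weights and each replicate left out.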

Additional observations from a re-analysis of the deposited data

How the results depend on the processing

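The count of 0 clock probe sets past the threshold held in limma under all 14 alternatives, with a lowest adjusted p of 0.243 for a clock probe set. The fold changes of ARNTL, CRY1, BHLHE40 and the brighter PER1 probe set kept their sign in every alternative. The dimmer PER1 probe set turned: with a replicate left out it lay between -0.46 (without Shaziling replicate 6) and 0.064 (without Shaziling replicate 4). It was 0.031 with array weights, which were 3.62 for Yorkshire replicate 1 and 1.54 for Shaziling replicate 6, against 0.60 for Shaziling replicate 4. The arm difference, 0.45, lay between 0.32 and 0.59 with a replicate left out. With the mean over all tested probe sets of each gene it was 0.40. It was 0.86 with PER1 as the sole repressor and -0.13 with BHLHE40. The PER1 fold change is negative (-0.38), and that of BHLHE40 (0.60) is larger than that of ARNTL (0.47). ARNTL alone as activator repeats the main value, since CLOCK was not measured. Over all probe sets the 31 calls became 13 with no filter on Present calls, 19 with Present on all 6 arrays, 8 without the variance trend and 364 with array weights (cause not tested), and 0 to 27 with a replicate left out (0 without Yorkshire replicate 1 and without Shaziling replicate 6). No paired analysis was possible because the breeds share no replicate numbers. Dim probe sets near background, such as the dimmer BHLHE40 one, carry little information.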

Other observations

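A probe set that the array design titled as weakly similar to mouse period homolog 3 carried no gene symbol, so it fell outside the rule, and it was picked after its values were seen. It was Present on all 6 arrays, with log2 signals of 8.04, 7.78 and 7.11 in Shaziling replicates 4, 5 and 6, against 8.49, 8.24 and 8.41 in Yorkshire replicates 1, 2 and 3. The breeds did not overlap, and the log2 fold change was -0.74 (SE 0.28, limma adjusted p = 0.397). Which gene it measures is not settled by the file. Another probe set outside the rule, titled as similar to mouse period homolog 1, was Present on no array. The file lists its matching probes on the negative strand.

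Of 4537 named genes outside the clock, those whose signals over the 6 animals ran closest to the arm difference were ANKRA2 (Pearson r 0.981), TBC1D12 (0.974) and RPS23, a ribosomal protein (0.973). Those that ran most against it were RPN1, a subunit of the oligosaccharyltransferase (-0.997), the mitochondrial ribosomal protein MRPL32 (-0.993) and CCS, the copper chaperone of superoxide dismutase (-0.986). With 6 animals, 64 genes reached an r of 0.9 and 109 an r of -0.9 or below, and the values share their arrays and breed, so the list is a description.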
